A study of Mus musculus with 3 samples.

Results

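The genes described here were 58 mouse developmental transcription factor genes that lie outside the Hox clusters, out of 22028 annotated protein-coding genes. They were chosen by name as members of 6 families: 15 Sox genes, 11 T-box genes (the Tbx genes and Eomes), 9 Pax genes, 6 Gata genes, 12 Fox genes and 5 Tfap2 genes. For each gene, peaks of the TH2B list and of the TH2A list were counted when they overlapped the gene body or the 5 kb on either side of it by at least 1 bp, in the GRCm38 (mm10) build.

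Chromatin came from mature caudal sperm of BALB/c-129-E mice aged 8 to 12 weeks, and by design the groups differed only in the antibody. One library was immunoprecipitated with a rabbit antibody against TH2B and one with a rabbit antibody against TH2A, while mononucleosomal Input DNA without antibody served as the control of peak calling. The reactions of each variant, 2 in number, were pooled before sequencing, so each variant had 1 library. Without replicates no comparison could be tested, and only counts with their counting error are given. The lists held 1179 TH2B and 210 TH2A peak positions with no height or score, so the strength of a peak and the read depth behind it are unknown. Peak positions hold no expression values, so the purity of the sperm could not be checked with marker genes.

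TH2A and TH2B are testis-specific variants of the core histones H2A and H2B that enter chromatin during spermatogenesis. Most histones of the sperm nucleus are later replaced by protamines, and the nucleosomes that remain have been found at CpG islands and at promoters of developmental genes. The factors studied here bind DNA through different domains (the HMG box of Sox proteins, the T-box, the paired domain of Pax proteins, the zinc fingers of Gata proteins, the forkhead domain of Fox proteins and the helix-span-helix region of AP-2 proteins), and they direct the formation of tissues in the embryo.

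A TH2B peak was present at 14 of the 58 genes (24.1%, 95% Wilson interval 15 to 36.5%): Sox6, Sox18, Tbx1, Tbx5, Tbx20, Pax1, Pax6, Pax9, Gata3, Gata6, Foxa1, Foxa2, Tfap2a and Tfap2b. Over all protein-coding genes the share was 4.23% (931 of 22028, interval 3.97 to 4.5%). The intervals, which cover counting error only, did not overlap. They do not cover the choice of the 58 genes, which was made with earlier results of these data known. Among the remaining 42 Sox, T-box and Fox genes the share was 9.52% (3.77 to 22.1%), an interval that includes the protein-coding share. No TH2A peak was found at any of the 58 genes, which allows a share of up to 5.17%, and the TH2A background was only 0.218% (48 of 22028 genes, interval 0.164 to 0.289%). The absence of TH2A was therefore not distinguishable from the background at this number of genes. The TH2A peak closest to any of these genes lay 0.246 Mb from Sox18.

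The 14 genes held 18 TH2B peaks. The windows of all 58 genes summed to 4.62 Mb, which gave 3.89 peaks per Mb against 0.647 peaks per Mb in the windows of all protein-coding genes (768 peaks in 1187 Mb), so the difference from the background was also present per length of sequence. More than 1 peak was found at Pax1 and Pax6 (2 each) and at Tfap2b (3). These were 3 of the 14 genes with a peak (21.4%, interval 7.57 to 47.6%), while 72 of the 931 protein-coding genes with a peak (7.73%) held more than 1, a difference within counting error.

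Every family held genes with and without a TH2B peak. The share was 2 of 15 Sox genes (13.3%, interval 3.74 to 37.9%), 3 of 11 T-box genes (27.3%, 9.75 to 56.6%) and 3 of 9 Pax genes (33.3%, 12.1 to 64.6%). It was 2 of 6 Gata genes (33.3%, 9.68 to 70.0%), 2 of 12 Fox genes (16.7%, 4.70 to 44.8%) and 2 of 5 Tfap2 genes (40.0%, 11.8 to 76.9%). All 6 intervals overlapped one another, so the families could not be ranked. The lower bound stayed above the protein-coding share in every family except Sox, where it fell below it.

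**Figure D1:**
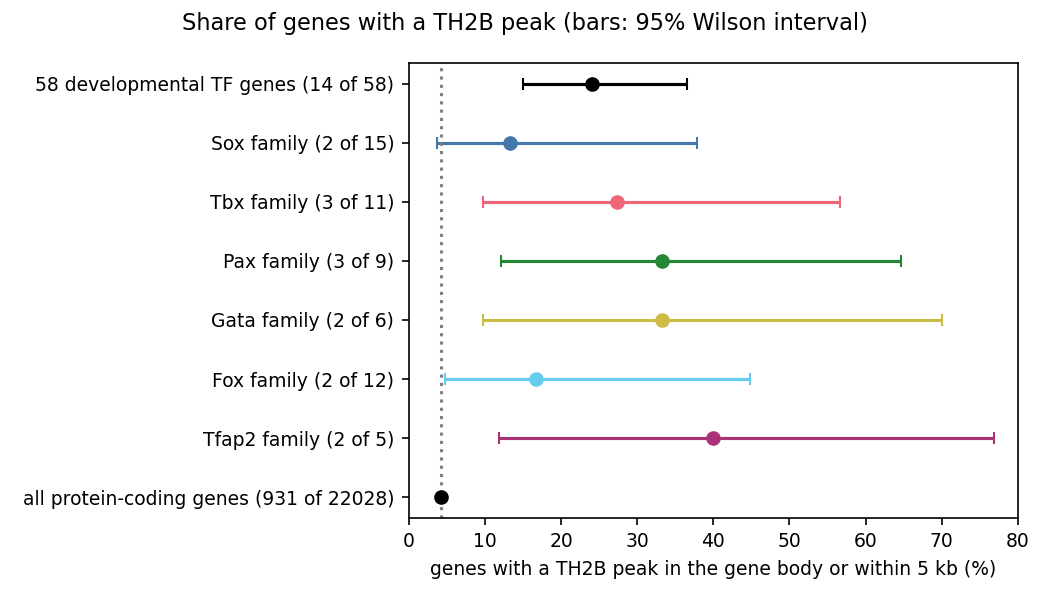
Share of genes with a TH2B peak in the gene body or within 5 kb (x axis, percent) for the 58 genes, each family and all protein-coding genes; points are shares, bars 95% Wilson intervals and the dotted line the protein-coding share of 4.23%. The family points lie between 13.3% and 40.0% and their intervals overlap one another.

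Among the 15 selected Sox genes, Sox6 and Sox18 had a peak, both upstream of the gene. Sox6 supports cartilage and red blood cell development, and its 311 bp peak (chr7:116040104-116040414) lay 1463 bp upstream of its first annotated start site. That peak was inside the neighbouring gene 1110004F10Rik, on the opposite strand, whose start site was only 547 bp from the peak centre. The main protein-coding (reference) transcript of Sox6 starts much farther away, 45173 bp from the peak. Sox18, a regulator of blood and lymphatic vessel formation, had a 270 bp peak (chr2:181675515-181675784) whose centre lay 4009.5 bp upstream of its single start site, with no annotated gene at the peak. The peaks of both genes are printed in the direction of the gene and with CpG dinucleotides in capitals, because they differ in CpG content. The Sox6 stretch (chr7:116040104-116040403, minus strand) holds 22 CpG in 300 bases, and the Sox18 peak (minus strand) holds 13 in 270 bases.
Sox6: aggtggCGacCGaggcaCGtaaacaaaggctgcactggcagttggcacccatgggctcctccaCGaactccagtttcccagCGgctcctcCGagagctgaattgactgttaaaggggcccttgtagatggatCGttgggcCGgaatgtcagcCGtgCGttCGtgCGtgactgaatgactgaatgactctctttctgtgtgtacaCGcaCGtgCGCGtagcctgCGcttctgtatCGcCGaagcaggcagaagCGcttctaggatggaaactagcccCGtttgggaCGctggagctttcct
Sox18: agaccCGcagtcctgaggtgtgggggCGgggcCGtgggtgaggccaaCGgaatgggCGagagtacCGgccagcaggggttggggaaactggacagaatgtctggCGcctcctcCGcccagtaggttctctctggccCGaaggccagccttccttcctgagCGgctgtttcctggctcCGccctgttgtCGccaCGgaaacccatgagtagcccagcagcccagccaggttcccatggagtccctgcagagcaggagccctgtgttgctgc

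The observed to expected CpG ratio was 0.85 over the whole Sox6 peak, the highest of the 18, and 0.45 over the Sox18 peak, although the GC content was higher at Sox18 (65.6%) than at Sox6 (57.6%). No peak was counted at the other 13 selected Sox genes: Sox1, Sox2, Sox3, Sox14 and Sox21 of the nervous system, Sox4 and Sox11, Sox5, Sox7 and Sox17, Sox8, Sox10 of the neural crest, and Sox9, which acts in testis and cartilage differentiation. Sox2, which maintains pluripotent cells, came closest, with a 284 bp TH2B peak 7573 bp upstream of its gene body and a 200 bp peak 10445 bp downstream. Both lay within Sox2ot, the long non-coding gene that contains Sox2, and nearest to start sites of the transcripts Gm42692 (573.5 bp) and Gm42693 (1283.5 bp).

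Of the 11 selected T-box genes, the 3 with a peak were Tbx1, Tbx5 and Tbx20, which act in the heart and, for Tbx1, in the pharyngeal arches. At Tbx20 the 340 bp peak (chr9:24773882-24774221) was wholly in the 5′ UTR in exon 1 of 8, with its centre 232.5 bp downstream of the nearest start site. At Tbx1 and Tbx5 the peaks were at the other end of the gene. The Tbx1 peak (chr16:18581236-18581467, 232 bp) lay in the 3′ UTR of the last of 7 exons, 5617.5 bp from the start of the reference transcript and 1976.5 bp from an internal start site. The Tbx5 peak (chr5:119883205-119883634, 430 bp) was the widest of the 18 and covered 280 bp of coding sequence and 150 bp of 3′ UTR in the last of 9 exons, 47264.5 bp from the nearest Tbx5 start site. The coding stretch of that peak is shown because it is protein-coding sequence far from any start site (chr5:119883205-119883484, plus strand, 14 CpG in capitals).
Tbx5: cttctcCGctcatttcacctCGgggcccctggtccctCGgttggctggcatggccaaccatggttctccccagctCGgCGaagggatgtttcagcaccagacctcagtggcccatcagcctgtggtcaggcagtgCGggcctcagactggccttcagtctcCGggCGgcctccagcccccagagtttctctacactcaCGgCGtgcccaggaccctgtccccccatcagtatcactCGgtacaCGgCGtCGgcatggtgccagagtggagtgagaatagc

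The start site nearest to the Tbx5 peak was that of the long non-coding gene Gm43269, at 31518.5 bp. The other selected T-box genes, Tbx2, Tbx3, Tbx4, Tbx6, Tbx15, Tbx18, Tbx21 and Eomes, had no TH2B peak in their windows. Among them Tbx3, the neighbour of Tbx5, was the closest to a peak, and the peak in question was the one in the last exon of Tbx5, 198.5 kb away.

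Pax1, Pax6 and Pax9 held 5 of the 18 peaks. Pax1, which forms the vertebral column, had both of its peaks over coding exons: the first (chr2:147365973-147366257, 285 bp) lay completely within coding exon 2 of 5, 1121 bp from the reference start site, and the second (chr2:147367594-147368011, 418 bp) covered 135 coding bases of exon 3 and flanking sequence, 479.5 bp before an internal start site. Pax6, the regulator of eye development, had a 200 bp peak (chr2:105670009-105670208) in an intron of its longer transcripts, where the start of the antisense gene Pax6os1 was 171.5 bp from the centre. Its second peak (chr2:105675252-105675632, 381 bp) was in a 5′ UTR of alternative transcripts, with its centre 9 bp from the nearest annotated start site and part of the peak on either side of that site. Pax9, needed for teeth and thymus, had a 242 bp peak (chr12:56691621-56691862) across its most upstream start site, with its centre 25.5 bp before it and 3897.5 bp before the reference start site, at a place where the gene Gm15524 also overlaps. The first peak of Pax1 and that of Pax6 are shown as examples of a coding and of an intronic peak (plus strand, CpG in capitals, 12 and 9 in number).
Pax1: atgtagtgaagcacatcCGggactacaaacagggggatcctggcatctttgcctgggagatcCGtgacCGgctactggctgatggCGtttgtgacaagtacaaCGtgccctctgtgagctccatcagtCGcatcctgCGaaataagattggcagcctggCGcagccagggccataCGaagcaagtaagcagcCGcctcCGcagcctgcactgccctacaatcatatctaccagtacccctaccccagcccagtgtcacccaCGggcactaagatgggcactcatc
Pax6: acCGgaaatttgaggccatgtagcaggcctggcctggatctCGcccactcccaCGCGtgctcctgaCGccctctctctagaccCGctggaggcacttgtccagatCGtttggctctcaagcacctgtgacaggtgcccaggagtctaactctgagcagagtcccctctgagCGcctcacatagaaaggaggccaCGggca

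Pax2, Pax3, Pax4, Pax5, Pax7 and Pax8 had no TH2B peak in their windows. Pax2, which acts in the kidney and optic nerve, had a 357 bp peak 13716 bp upstream of its gene body, in the annotated gene AC138457.1. It and Sox2 were the only genes of the 58 with a TH2B peak beyond 5 kb but within 25 kb. Pax4 was 44.3 kb from a peak at the start of Zfp800, and Pax7 was 99.8 kb from one in Aldh4a1.

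Gata3 and Gata6 were the Gata genes with a peak. Gata3, which directs T cell and mammary development, had a 210 bp peak (chr2:9876923-9877132) inside intron 2, 1572.5 bp from the reference start site. The start of the antisense gene Gm13256 was nearer, at 228.5 bp. In Gata6, a regulator of endoderm and heart, a 215 bp peak lay in an alternative 5′ UTR, with its centre 128 bp from the nearest annotated start site. In the reference transcript the peak was in intron 1, with its centre 702 bp from the start. Gata1, Gata2, Gata4 and Gata5 had no peak, and Gata1, the red blood cell factor on the X chromosome, was the farthest of all 58 genes from a TH2B peak (25.4 Mb). The intronic Gata3 peak is shown for comparison with that of Pax6 (minus strand, 11 CpG in capitals).
Gata3: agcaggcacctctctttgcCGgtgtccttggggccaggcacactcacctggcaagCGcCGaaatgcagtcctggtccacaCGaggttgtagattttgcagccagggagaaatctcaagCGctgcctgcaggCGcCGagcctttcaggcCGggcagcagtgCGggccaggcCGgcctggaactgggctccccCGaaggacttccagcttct

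Among the 12 Fox genes of the selection only Foxa1 and Foxa2, related factors that open chromatin in the endoderm, had a peak. In neither was it in the gene body. At Foxa1 a 359 bp peak (chr12:57549614-57549972) lay 2877 bp upstream of the first start site with no annotated gene at that place. At Foxa2 a 232 bp peak (chr2:148039609-148039840) lay 3037 bp beyond the 3′ end of the gene, within the long non-coding gene 9030622O22Rik and 478.5 bp from its start. Their relative Foxa3 had no peak within 141.5 kb. The selected Fox genes without a peak were Foxa3, Foxc1, Foxc2, Foxd3, Foxe1, Foxf1, Foxl2, Foxp1, Foxp2 and Foxq1. The Foxa2 peak is shown because it is the one peak downstream of a gene (minus strand, 12 CpG in capitals).
Foxa2: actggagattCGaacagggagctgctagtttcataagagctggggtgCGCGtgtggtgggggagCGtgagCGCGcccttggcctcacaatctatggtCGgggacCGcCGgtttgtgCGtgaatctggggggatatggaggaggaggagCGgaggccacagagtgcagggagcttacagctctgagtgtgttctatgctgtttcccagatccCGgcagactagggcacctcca

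Tfap2a and Tfap2b encode AP-2 factors of the neural crest and kidney. The Tfap2a peak (chr13:40738507-40738811, 305 bp) was upstream of the gene, with its centre 283 bp from the most upstream start site and 4836 bp from the reference start site, and the gene Gm47067 also covers it. Tfap2b had 3 peaks. The first (chr1:19210293-19210492, 200 bp) lay in intron 1 of the reference transcript, 1432.5 bp from the nearest start site. In RefSeq gene models all of this peak was UTR. The others (chr1:19234901-19235115, 215 bp, and chr1:19236572-19236913, 342 bp) lay in the last of 7 exons, in the 3′ UTR of the reference transcript, at 21129 and 22863.5 bp from the nearest Tfap2b start site, and the second of them reaches coding sequence of another transcript. Tfap2c, Tfap2d and Tfap2e had no peak. Tfap2d lies 42.6 kb from Tfap2b, and the peak nearest to it was the intronic one of Tfap2b, 43.9 kb away. The Tfap2a stretch (chr13:40738507-40738806, minus strand, 17 CpG in capitals) is shown as the peak closest to a start site among those outside a gene body.
Tfap2a: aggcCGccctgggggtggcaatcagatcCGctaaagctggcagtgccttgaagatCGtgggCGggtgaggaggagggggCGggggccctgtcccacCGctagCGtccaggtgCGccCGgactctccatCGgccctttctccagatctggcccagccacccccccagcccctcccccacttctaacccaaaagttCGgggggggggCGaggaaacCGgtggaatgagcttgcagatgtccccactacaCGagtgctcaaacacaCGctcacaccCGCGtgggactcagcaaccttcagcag

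The gap to the nearest TH2B peak showed where the 5 kb limit fell. Just inside it were Foxa1 (2698 bp), Foxa2 (3037 bp) and Sox18 (3875 bp), and just outside were Sox2 (7573 bp) and Pax2 (13716 bp). For the 44 genes without a peak the median gap was 633 kb, and only 5 of them (Sox2, Pax2, Tfap2d, Pax4 and Pax7) had a peak within 100 kb. Over all 58 genes the median gap was 385 kb, against 688 kb for all protein-coding genes.

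**Figure D2:**
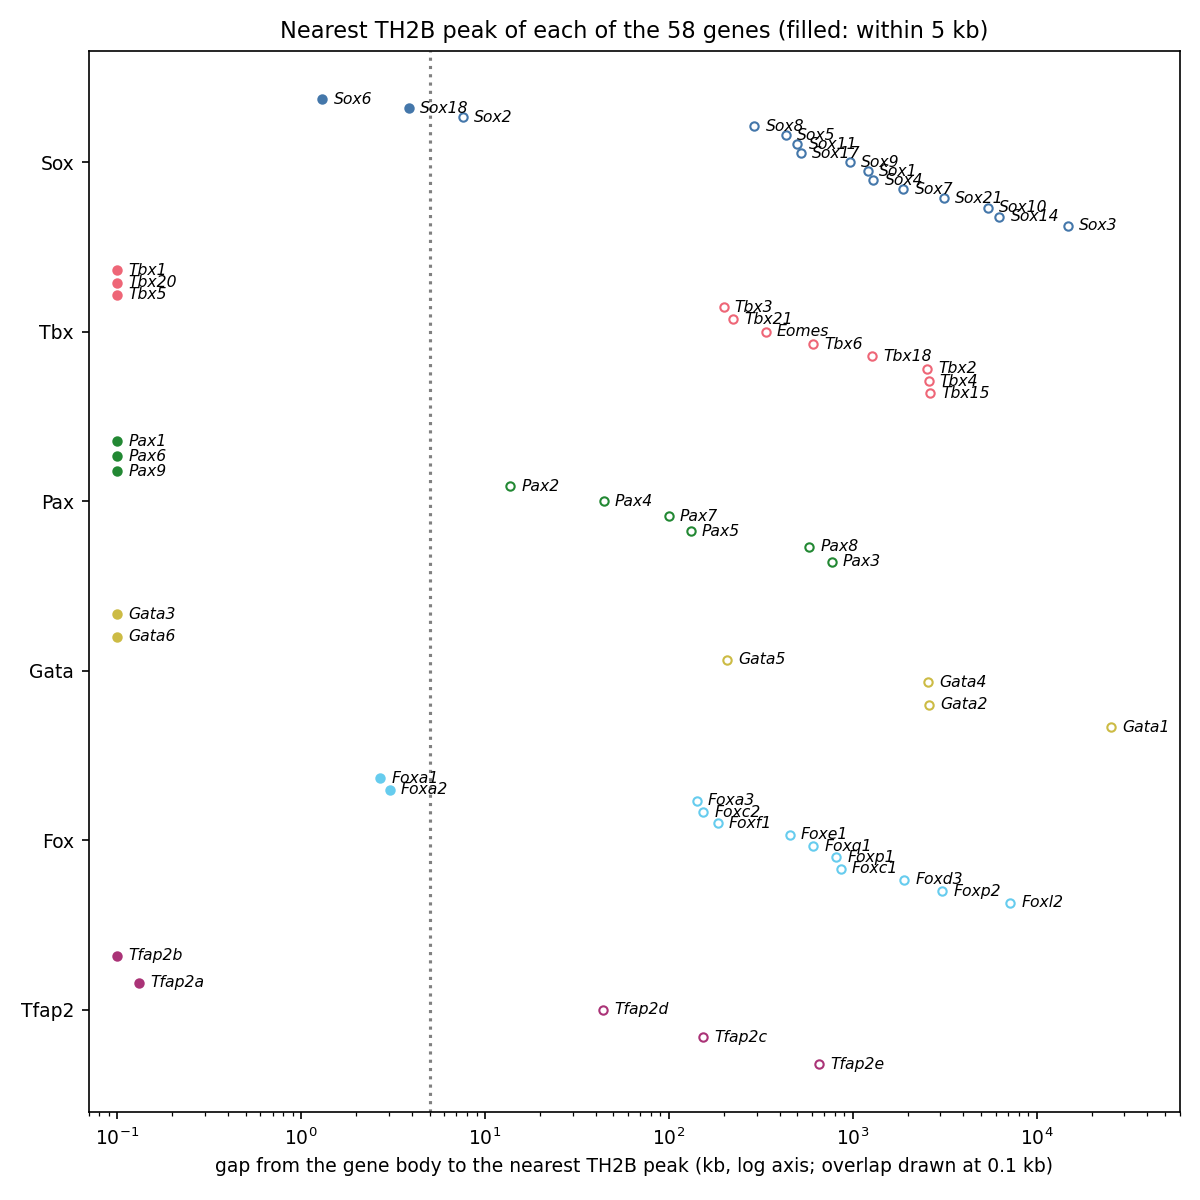
Gap from the gene body to the nearest TH2B peak (x axis, kb, log scale, overlap drawn at 0.1 kb) for each of the 58 genes, one row of points per family; filled points are the genes with a peak within 5 kb, the dotted line. Sox2 and Pax2 are the open points closest to the line, and Gata1 is the farthest to the right at 25.4 Mb.

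The peaks were spread over the genes and were not all at start sites. Of 18 peaks, 13 overlapped the gene body, 4 were upstream and 1 was downstream. The centre of 6 peaks was within 1 kb of an annotated start site of the gene (Pax6, Pax9, Gata6, Tbx20, Tfap2a and the second Pax1 peak). Of the 18, 12 were within 2 kb and 4 were over 5 kb away (Tbx5, Foxa2 and both last-exon peaks of Tfap2b). The number within 1 kb was 7 by the nearest edge of the peak and 5 with start sites of protein-coding transcripts only. By the latter, the second Pax1 peak was 2808.5 bp and the Tbx1 peak 5617.5 bp away. The median distance to any annotated start site was 1448 bp. Among all 1043 pairs of a protein-coding gene and a TH2B peak in its window, the median was 1046 bp and 49.4% were within 1 kb (interval 46.4 to 52.4%), against 33.3% here (16.3 to 56.3%), so the share near start sites did not differ beyond its counting error.

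For 11 peaks (61.1%, interval 38.6 to 79.7%) the nearest start site of any gene was that of the developmental gene, close to the 60.6% found over all pairs. For the other 7 it belonged to another annotated gene: 1110004F10Rik at Sox6, Gm43269 at Tbx5, Pax6os1 at Pax6, Gm13256 at Gata3, 9030622O22Rik at Foxa2 and Gm28340 at the last-exon peaks of Tfap2b. When only start sites of protein-coding genes were considered, the Sox6 peak was the sole one nearer to another gene. Which of the overlapping or neighbouring genes a peak relates to cannot be told from its position.

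**Figure D3:**
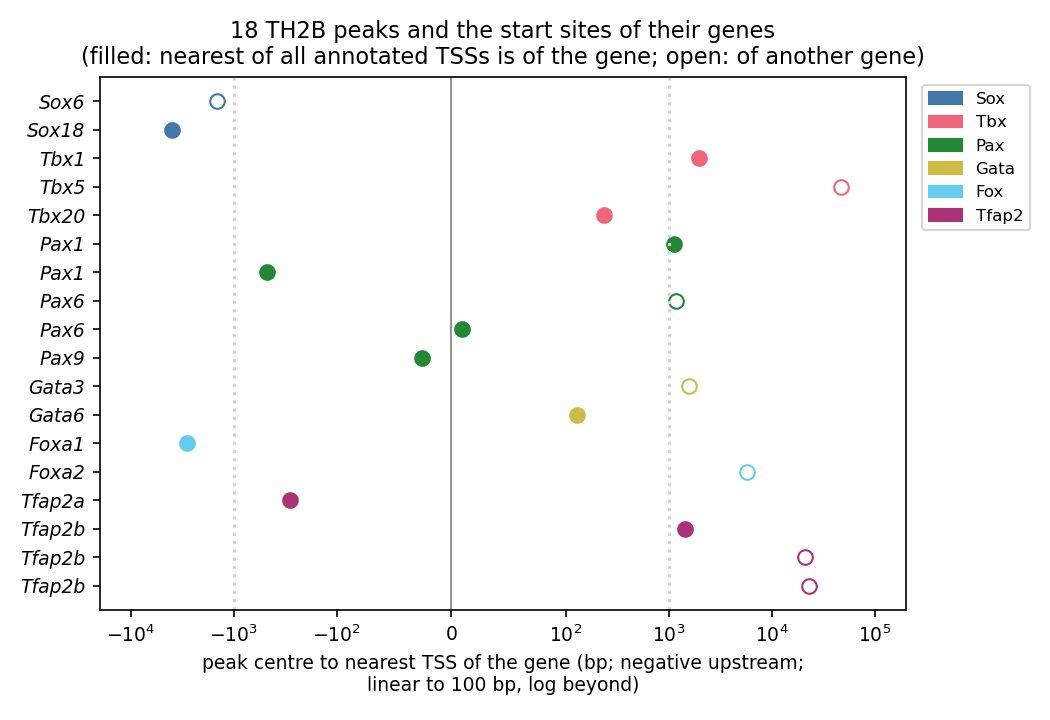
Signed distance (x axis, bp, linear to 100 bp and log beyond, negative upstream) from the centre of each of the 18 TH2B peaks to the nearest start site of its gene; colours are families, open circles are the 7 peaks nearest to a start site of another gene and the dotted lines mark 1 kb. The centres of 12 peaks lie downstream of the start site and of 6 upstream.

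Peaks in the last exon of the reference transcript were 4 of the 18 (Tbx1, Tbx5 and Tfap2b with 2), or 22.2% (interval 9 to 45.2%). Over all pairs of a protein-coding gene and a peak this place was rare, 54 of 1043 or 5.18% (3.99 to 6.69%). The intervals did not overlap, but they treat peaks of the same gene as independent. As both last-exon peaks of Tfap2b belong to the same gene, the 4 peaks came from 3 genes. The place was also chosen for comparison after its values were seen, so no difference is concluded from the intervals. Coding exons were reached by 22.2% of the peaks here and by 26.4% over all pairs, and introns alone held 16.7% and 22.4%, respectively. In the GENCODE gene models, the peaks that reached 5′ UTRs were those of Tbx20, Pax6, Pax9 and Gata6, of which the last is located at chr18:11053065-11053279. The first Tfap2b peak was counted among the introns, but in RefSeq gene models all of it was UTR.

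**Figure D4:**
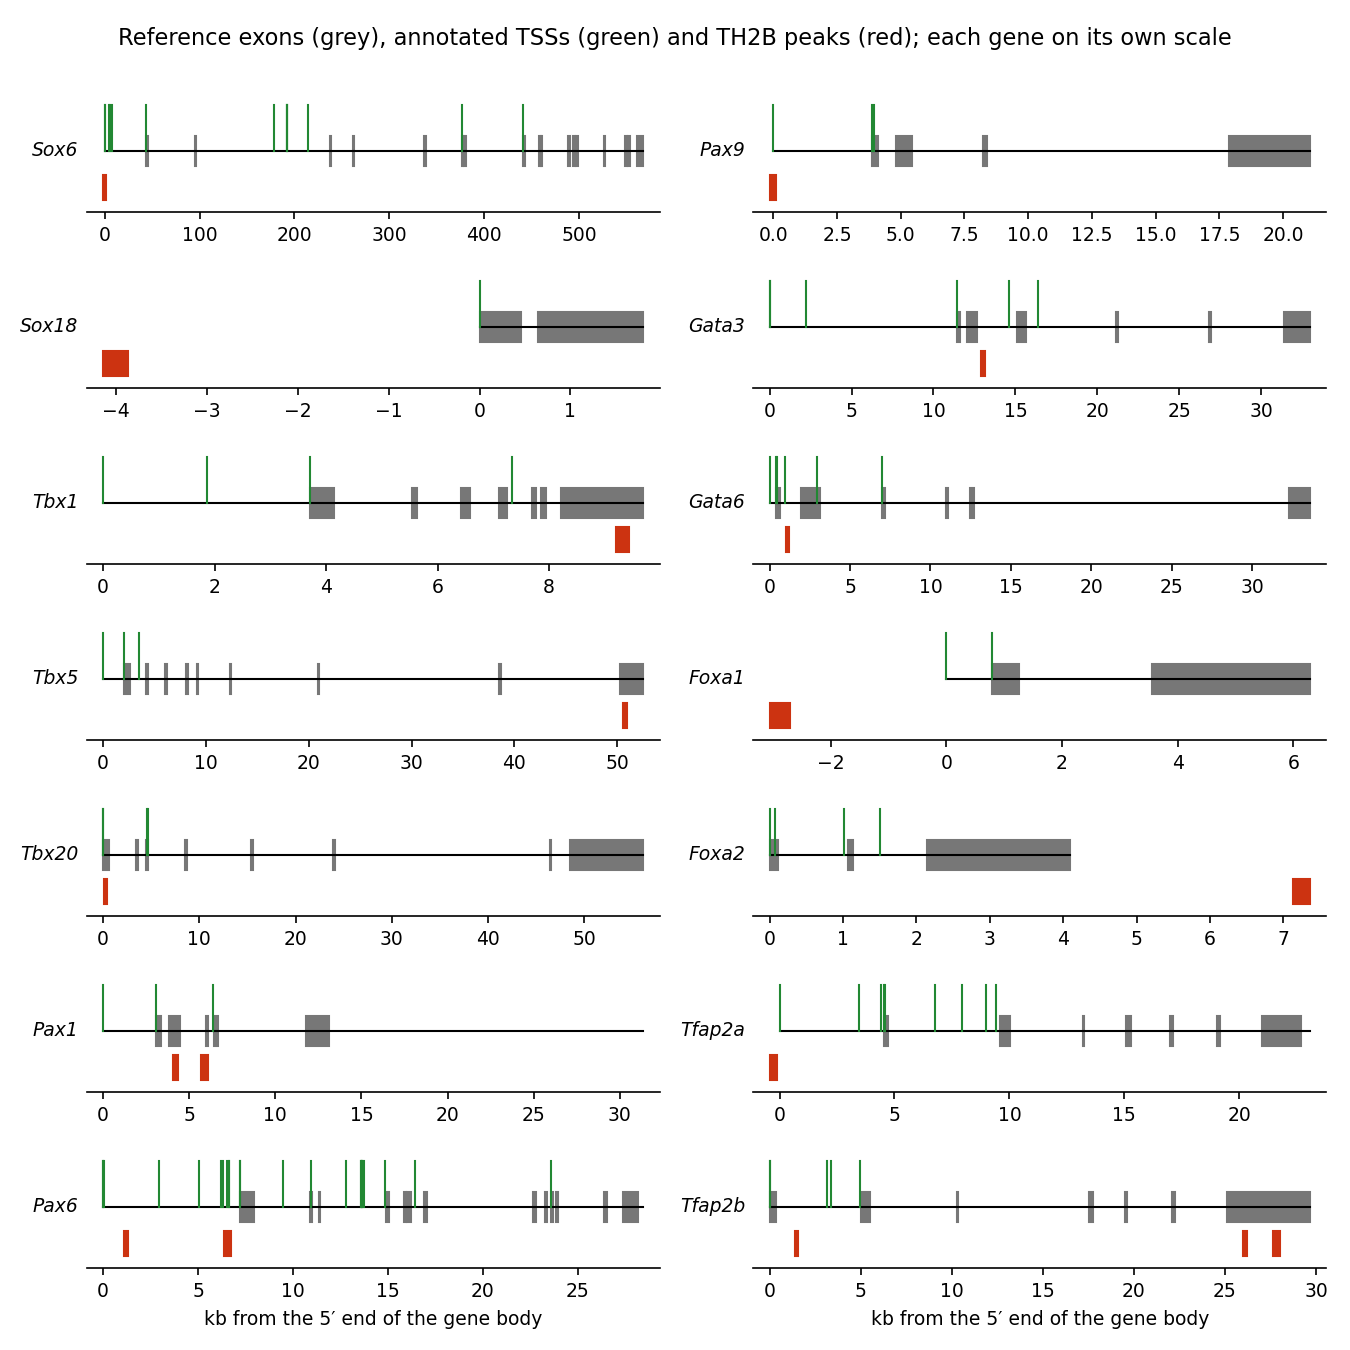
Maps of the 14 genes with a TH2B peak, each on its own scale (x axis, kb from the 5′ end of the gene body, transcription to the right), with the exons of the reference transcript in grey, annotated start sites in green and TH2B peaks in red. The peaks of Tbx1, Tbx5 and Tfap2b (2 of its 3) lie under the last exon, and those of Sox6, Sox18, Foxa1 and Tfap2a lie before the gene.

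In base composition, the 18 peaks were like other TH2B peaks in protein-coding windows. Their median GC content was 60.5% (56.0 to 65.6%) against 60.6% for the 758 peaks of protein-coding windows whose sequence could be read, and the median observed to expected CpG ratio was 0.52 (0.34 to 0.85) against 0.57. CpG-rich peaks, defined as a GC content of at least 50% and a ratio of at least 0.6, were 7 of 18 (38.9%, interval 20.3 to 61.4%), compared with 45.4% (41.9 to 48.9%). These 7 were the peaks of Sox6, Tbx1, Pax9 and Foxa2, the second of Pax6, and the first and last of Tfap2b. Among the peaks printed above, only those of Sox6 and Foxa2 were CpG-rich, although all had a GC content over 50%.

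For none of the 18 peaks was a near-identical copy found elsewhere in the genome (95% identity or more across 80% or more of its length). The search started from exact matches of 48 bases, so a copy without such a match would be missed. Near-identical copies were found for 11.2% of the peaks in protein-coding windows (9.16 to 13.7%) and for 24.7% of all 1140 TH2B peaks on assembled chromosomes. The interval for 0 of 18 reaches 17.6%, so the difference from protein-coding windows was within counting error.

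**Figure D5:**
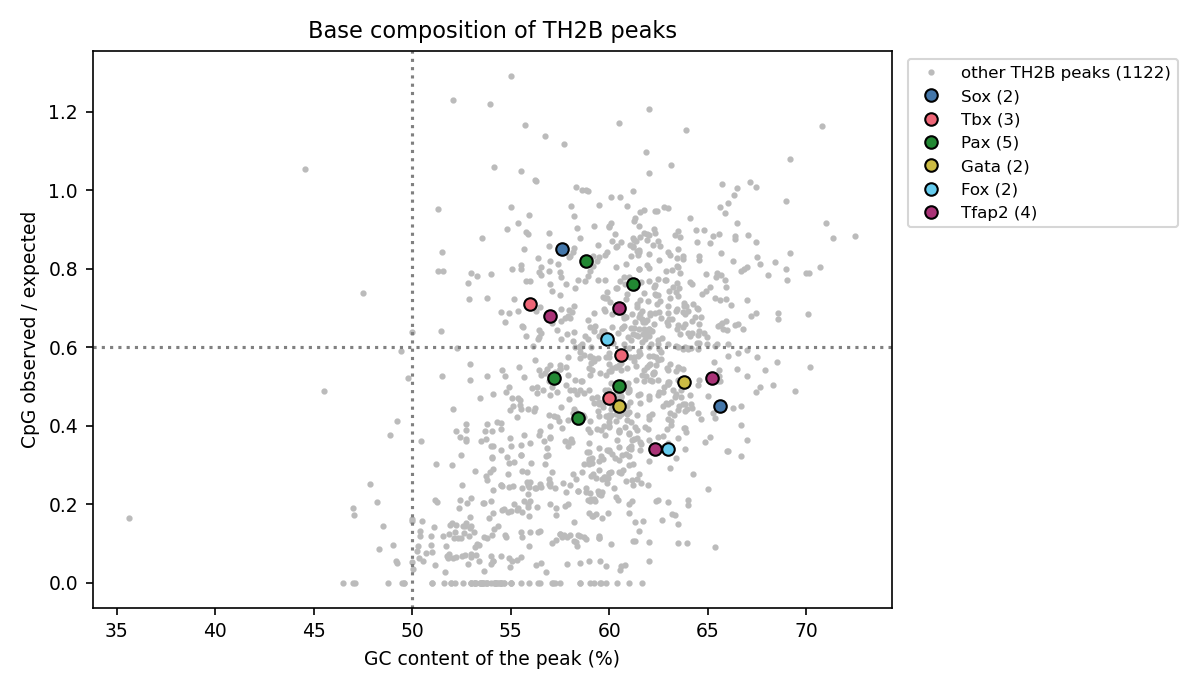
GC content (x axis, percent) and observed to expected CpG ratio (y axis) of the 18 TH2B peaks at the developmental genes, coloured by family, and of the 1122 other TH2B peaks on assembled chromosomes in grey; dotted lines mark 50% and 0.6. The coloured points lie within the grey cloud, between 56.0% and 65.6% GC.

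The genes with and without a peak were compared for gene body length and then for promoter composition. Length is not independent of the peak count, because each window was the gene body plus 5 kb on either side. A longer gene therefore had more sequence in which a peak could be counted. The median gene body was 29.1 kb for the 14 genes with a peak (1.80 kb at Sox18 to 568 kb at Sox6) and 9.21 kb for the 44 without (2.06 to 954 kb). How much of the difference between these medians came from the window length was not tested, so no conclusion is drawn from it. Divided at the quartiles of all protein-coding genes (6.46, 17.32 and 45.00 kb), a peak was present at 3 of 20, 1 of 13, 7 of 11 and 3 of 14 of the genes from the shortest to the longest quartile. The third of these, 63.6% (interval 35.4 to 84.8%), holds Pax1, Pax6, Pax9, Gata3, Gata6, Tfap2a and Tfap2b. This division was chosen after the values were seen, so no difference between quartiles is concluded. The corresponding shares of all protein-coding genes were 3.36%, 3.72%, 4.29% and 5.54%, so the share of the developmental genes was the higher one in each quartile, although in the second quartile it rested on 1 gene (interval 1.37 to 33.3%).

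Promoter composition did not separate the genes with a peak from those without. The median CpG ratio in the 1000 bp around the reference start site was 0.66 in genes with a peak and 0.69 in genes without. A peak was present at 10 of 40 genes with a CpG-rich promoter (25%, interval 14.2 to 40.2%) and at 4 of 18 genes with another promoter (22.2%, 9 to 45.2%: Sox6, Tbx5, Foxa2 and Tfap2b). For all protein-coding genes these shares were 5.15% and 3.38%, so within both promoter classes the developmental genes had the higher share.

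The 18 peaks lay on 9 chromosomes, and 7 of them were on chromosome 2. There, 5 of 8 genes had a peak (Sox18, Pax1, Pax6, Gata3 and Foxa2), or 62.5% (interval 30.6 to 86.3%), and Pax8, Gata5 and Tfap2c had none. On the other chromosomes the share was 18% (9 of 50, 9.77 to 30.8%), and its interval overlapped that of chromosome 2 narrowly. Chromosome 2 as a whole was not richer in genes with a peak, with 4.02% of its 1843 protein-coding genes. It was singled out after the values were seen, so no difference between chromosomes is concluded.

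Some of the 58 genes are neighbours. In 9 pairs the gene bodies lay within 1 Mb of each other, and both genes had a TH2B peak in 2 of them, Pax1 with Foxa2 (650 kb apart) and Pax9 with Foxa1 (828 kb apart). One gene of the pair had a peak in 2 more, Tfap2b with Tfap2d and Tbx5 with Tbx3. In the other 5 pairs (Foxc2 with Foxf1, Tbx2 with Tbx4, Foxc1 with Foxq1, Sox7 with Gata4, and Sox14 with Foxl2) neither had one. No TH2B peak was shared between the windows of different genes.

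The 58 genes are a selection from their families, so the remaining Sox, T-box and Fox genes were counted in the same way. Of 42 such genes 4 had a TH2B peak (9.52%, interval 3.77 to 22.1%) and none had a TH2A peak. The absence of TH2A allows a share of up to 7.14%, beside a TH2A background of 0.218%. The TH2B interval of these 42 genes alone includes the protein-coding share. Those with a TH2B peak are named next. The genes were Sox30, a spermatogenesis factor, with a 213 bp peak in a coding exon 11395 bp from its start; Mga, a T-box and Myc-network protein, with a 357 bp peak centred 26 bp from its start; Foxb2, with a 200 bp peak 2456.5 bp upstream; and Foxk1, with a 206 bp peak in an intron 39093.5 bp from its start. Over the 100 genes of both lists the share was 18% (11.7 to 26.7%), lower than for the 58 alone, and 14 of the 18 genes with a peak were from the 58. With the added genes, the share was 4 of 44 Fox genes (9.09%, 3.59 to 21.2%), an interval that includes the protein-coding share. It was 3 of 19 Sox genes (15.8%, 5.52 to 37.6%) and 4 of 17 T-box genes (23.5%, 9.56 to 47.3%), intervals that lie above it.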

How the data were processed

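Native ChIP of caudal sperm with antibodies against TH2B and TH2A gave 1 library per variant, each pooled from 2 reactions, and Input was used only as the control for calling peaks. By the numbers the authors reported, TH2A was sequenced somewhat deeper than TH2B and Input, with 34000000 against about 30000000 unique read pairs. After trimming (Trimmomatic) and alignment to mm10 (BWA), the authors called peaks against Input with MACS2 2.1.3 at a p-value cutoff of 0.05 and deposited, for each variant, a list of peak positions in bp. The deposited lists hold no score, so depth behind a peak is unknown, and no stricter threshold could be applied.

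Genes, transcripts and start sites were taken from GENCODE mouse release M21, and sequences from GRCm38.p6, as distributed by RefSeq. A gene had a peak if at least 1 bp lay in the gene body or within 5 kb. Distance was measured between the centre of a peak and the closest annotated start site of its gene, and the reference transcript was the APPRIS principal one with the longest coding sequence. Intervals are 95% Wilson intervals and a count of 0 allows 3 counts; both cover counting error only, and genes are not replicates. Promoter composition was read from 500 bp on either side of the reference start site and could be given for 21853 protein-coding genes. Near-identical copies came from BLAST 2.17.0 with a word size of 48. Python 3.11, numpy 2.4.6, scipy 1.17.1, pysam 0.24.0 and matplotlib 3.10.9 were used, and the functions were tested on simulated data. The members, families and comparison lists were chosen with earlier results of these data known. Named genes are every gene with a peak, those without one, those with a peak within 25 kb, and the remaining family genes with a peak. The comparisons by gene body quartile, promoter class, exon, chromosome and neighbouring pair were chosen after the values were seen.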

Additional observations from a re-analysis of the deposited data

How the results depend on the processing

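Each share was recomputed with other windows, gene models and peak sets. The share of the 58 genes with a TH2B peak ranged from 15.5% (gene body only, where Sox6, Sox18, Foxa1, Foxa2 and Tfap2a were lost) to 27.9% (without the Sox genes), always inside the interval of the reported value. Sox2 was gained with a 10 kb flank (25.9%), and Pax2 with RefSeq gene bodies (25.9%). With peaks assigned only to the nearest start site of any gene, Sox6, Tbx5, Gata3 and Foxa2 were lost (17.2%). RefSeq gene bodies, families left out in turn and the added family genes were alternatives chosen after seeing the data. For TH2A, none of the 58 genes had a peak under the 10 alternatives with other windows, transcripts, peak sets or autosomes only, and the alternatives chosen after seeing the data were not run for it.

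The share of all protein-coding genes with a TH2B peak moved outside its interval to 2.89% (gene body only), 3.40% (1 kb flank), 5.14% (10 kb flank), 3.27% (5 kb around any start site), 2.63% (nearest start site of any gene), 3.02% (nearest start site of a protein-coding gene) and 3.87% (peaks with a near-identical copy left out). For TH2A it moved to 0.141% (gene body only), 0.159% (1 kb flank, and also nearest start site of a protein-coding gene), 0.145% (nearest start site of any gene), 0.136% (copies left out) and 0.144% (autosomes only). In every one of these alternatives the share of the 58 genes with a TH2B peak stayed above that of all protein-coding genes run the same way. The stricter score threshold was not run, since the lists hold no score. No paired analysis was possible because each variant has 1 library and no test was made.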

Other observations

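Other developmental regulators were counted in the same windows. Among 39 Hox genes 6 had a TH2B peak (15.4%, 95% Wilson interval 7.25 to 29.7%), and among 101 further developmental transcription factor genes 15 had one (14.9%, 9.21 to 23.1%). Over all protein-coding genes the TH2B share was 4.23%. The TH2B intervals of these lists overlapped that of the 58 genes. Neither list had a TH2A peak, which allows shares of up to 7.69% (Hox) and 2.97% (further genes). The TH2A background was only 0.218%, so these absences were not distinguishable from it. The 15 genes included Nkx2-1, a thyroid and lung factor, with a peak 393.5 bp from its start, Nkx2-3 (98.5 bp), Twist1 (442.5 bp), Zic5 (20 bp), and Barx1 and Irx5 with 2 peaks each. The Hox genes were Hoxa9, Hoxa10, Hoxb3, Hoxc11, Hoxd8 and Hoxd9, of which Hoxa9 and Hoxa10 share 2 peaks and Hoxd8 and Hoxd9 share 1, so these genes are not independent counts.

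On chromosome 12, which holds the pair Pax9 and Foxa1, further TH2B peaks lay at other developmental genes. A pair at Nkx2-9 was 78.1 and 78.7 kb from Pax9. The peak in Nkx2-1 (chr12:56536406-56536623) was more than 100 kb from Pax9. Whether these peaks are linked was not tested. A second TH2B peak near Sox6 lay 54.5 kb from the gene, with its centre 11.5 bp from a start site of 1110004F10Rik, the gene that also holds the counted Sox6 peak. These neighbours were chosen after their values were seen.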
